A study of Homo sapiens with 9 samples.

Results

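The genes described here govern the step from G1 into S phase: the D cyclins CCND1, CCND2 and CCND3, the E cyclins CCNE1 and CCNE2, the cyclin-dependent kinase (CDK) inhibitors CDKN1A (p21), CDKN1B (p27) and CDKN2B (p15), and the transcription factors E2F1 and E2F8. Members were found by symbol: a probe set, the group of probes that reports 1 transcript, was taken where the array annotation gave it exactly 1 of these symbols. All 10 genes had a probe set of their own, 1 each, of 18417 genes that did. By the labels, the cells were SK-BR-3, a human breast cancer line described there as luminal-like, stably transfected with the plasmid pcDNA3.1/V5/His-pTOPO carrying cDNA of TFPIα or of TFPIβ, the isoforms of tissue factor pathway inhibitor, a Kunitz-type inhibitor of the initiation of blood coagulation. Controls carried the same plasmid without an insert (empty vector), so every array is from transfected and drug-selected cells. The labels name puromycin as the selecting drug and the study's methods name neomycin. The transfected cells were kept as 1 stable pool per vector, grown in RPMI1640 medium with 10% fetal bovine serum, and RNA was isolated 3 times from each pool, which gave 3 Affymetrix Human Gene ST arrays for each of TFPIα, TFPIβ and empty vector. The replicates are thus separate RNA isolations of 1 pool, and p-values measure the spread between isolations, not between independent transfections.

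In G1, mitogens induce D cyclins, which bind CDK4 and CDK6 and start the phosphorylation of the retinoblastoma protein RB. RB in its unphosphorylated state holds E2F transcription factors. Release of activating E2Fs such as E2F1 turns on the E cyclins, which partner CDK2, and the genes of DNA replication. CDKN2B belongs to the INK4 family, which binds CDK4 and CDK6, and is a known target of TGF-β. CDKN1A and CDKN1B belong to the CIP/KIP family and act mainly on cyclin E and cyclin A kinases, CDKN1A as a main target of p53 and CDKN1B as a brake that accumulates in quiescent cells. E2F8 is a repressor of the same promoters, expressed late in S phase. In breast cancer CCND1 and CCNE1 are well known as amplified genes.

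Before the members, the labels were set against the arrays. The mean log2 signal of TFPI was 5.66 ± 0.15 for TFPIα, 5.72 ± 0.14 for TFPIβ and 6.25 ± 0.38 for empty vector, each over 3 arrays (± SD). The gene that was to be overexpressed was thus lower, not higher, in the arrays labelled as overexpressing it. By the study's account the inserts held only the coding region, so that array probes in the untranslated regions missed the transgene. It also reports higher TFPI in both groups with an algorithm that drops dim probes, and by earlier qRT-PCR. Neither was repeated here, and the deposited signal of this probe set alone was not taken as a check of any label. Every group name below is therefore that of the label, and no value here ties a direction to TFPI. Of 10 markers of luminal, ERBB2-amplified breast cancer cells, SPDEF and ERBB3 were under a log2 signal of 5 on all arrays. ERBB2 lay between 5.63 and 6.24, KRT8 between 5.68 and 6.20 and GATA3 between 4.86 and 5.82. KRT19 lay between 4.64 and 5.25, FOXA1 between 4.64 and 5.13 and GRB7 between 5.04 and 5.30. Only KRT18 at 9.49 to 10.76 and XBP1 at 8.85 to 9.78 were bright. KRT18 was read by the brighter of its 2 probe sets. All 5 measured markers of basal epithelial cells were above 5, with KRT5 at 12.40 to 12.83 and KRT14 at 11.99 to 12.74. The low ERBB2, ERBB3 and SPDEF and the high KRT5 and KRT14 go against the label of a luminal-like, ERBB2-amplified line. Each TFPIβ array had its highest correlation with an array of another group, and this was not particular to TFPIβ. TFPIα replicate 1 reached 0.986 with a TFPIβ array and at most 0.978 with its own group. Empty vector replicate 2 reached 0.984 with a TFPIβ array and at most 0.976 with its own group. For empty vector replicate 1 the margin was narrow, at 0.9849 with a TFPIα array and 0.9847 with its own group. Across probe sets, TFPIβ replicate 3 had Pearson correlations of 0.980 to 0.987 with the 3 TFPIα arrays and of 0.953 to 0.967 with its own group, so it goes against its label, and whether that label is right was not tested. TFPIβ replicate 1 had correlations of 0.977 to 0.984 with empty vector, of 0.959 to 0.986 with TFPIα and of 0.967 to 0.973 with its own group, and TFPIβ replicate 2 had its highest, 0.984, with an empty vector array. Comparisons with TFPIβ are given with and without replicate 3.

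Promoter sequences of E2F1 and CCNE1 are shown first, from RefSeq (GRCh38.p14), each running from 250 bases before to 50 after a transcription start. Promoters were searched for 6 of the 10 genes, with 8 starts in all. Those of CCND1, CCND2, CCNE2 and E2F8 were not searched, so nothing is said of their sequences. E2F1, on the minus strand of chromosome 20, is shown because its promoter was the only one of the 8 with a word of the E2F consensus (TTTGGCGC, TTTCGCGC, TTTCCCGC or TTTGCCGC, searched on both strands), marked in capitals, and because its log2 signal differed little between arrays. CCNE1, on the plus strand of chromosome 19, is shown as a textbook E2F target whose log2 signal varied far more.
E2F1, chr20:33686336-33686635, minus strand: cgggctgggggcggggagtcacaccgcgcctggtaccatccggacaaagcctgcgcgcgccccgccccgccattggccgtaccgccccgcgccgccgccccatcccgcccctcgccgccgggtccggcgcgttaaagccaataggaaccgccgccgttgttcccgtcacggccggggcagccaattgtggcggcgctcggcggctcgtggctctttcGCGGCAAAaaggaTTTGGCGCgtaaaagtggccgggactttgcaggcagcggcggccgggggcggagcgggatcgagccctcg
CCNE1, chr19:29811741-29812040, plus strand: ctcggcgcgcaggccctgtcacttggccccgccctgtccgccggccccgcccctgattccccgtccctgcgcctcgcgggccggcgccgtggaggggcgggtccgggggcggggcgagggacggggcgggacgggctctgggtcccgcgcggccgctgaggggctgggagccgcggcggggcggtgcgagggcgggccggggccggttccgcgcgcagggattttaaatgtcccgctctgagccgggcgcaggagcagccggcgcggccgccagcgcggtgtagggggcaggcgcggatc
In the E2F1 promoter the 2 words began 33 and 20 bases before the start, the first on the opposite strand. The same 4 words were present in 3.31% of 35116 human promoters of this length. The CCNE1 window held none of them, which says only that these letters are not there, and held 7 GC boxes (GGGCGG on either strand), a word found in 45.0% of promoters. E2F1 had 6 GC boxes, CDKN1A 4, CDKN2B 2 and CDKN1B 1, and the 3 CCND3 starts had 0, 4 and 5. TATAAA, found in 11.5% of promoters, and TTTGAA, a core of the cell cycle homology region found in 15.2%, were in none of the 8. A word match is a description of the sequence and not evidence of binding.

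**Figure D1:**
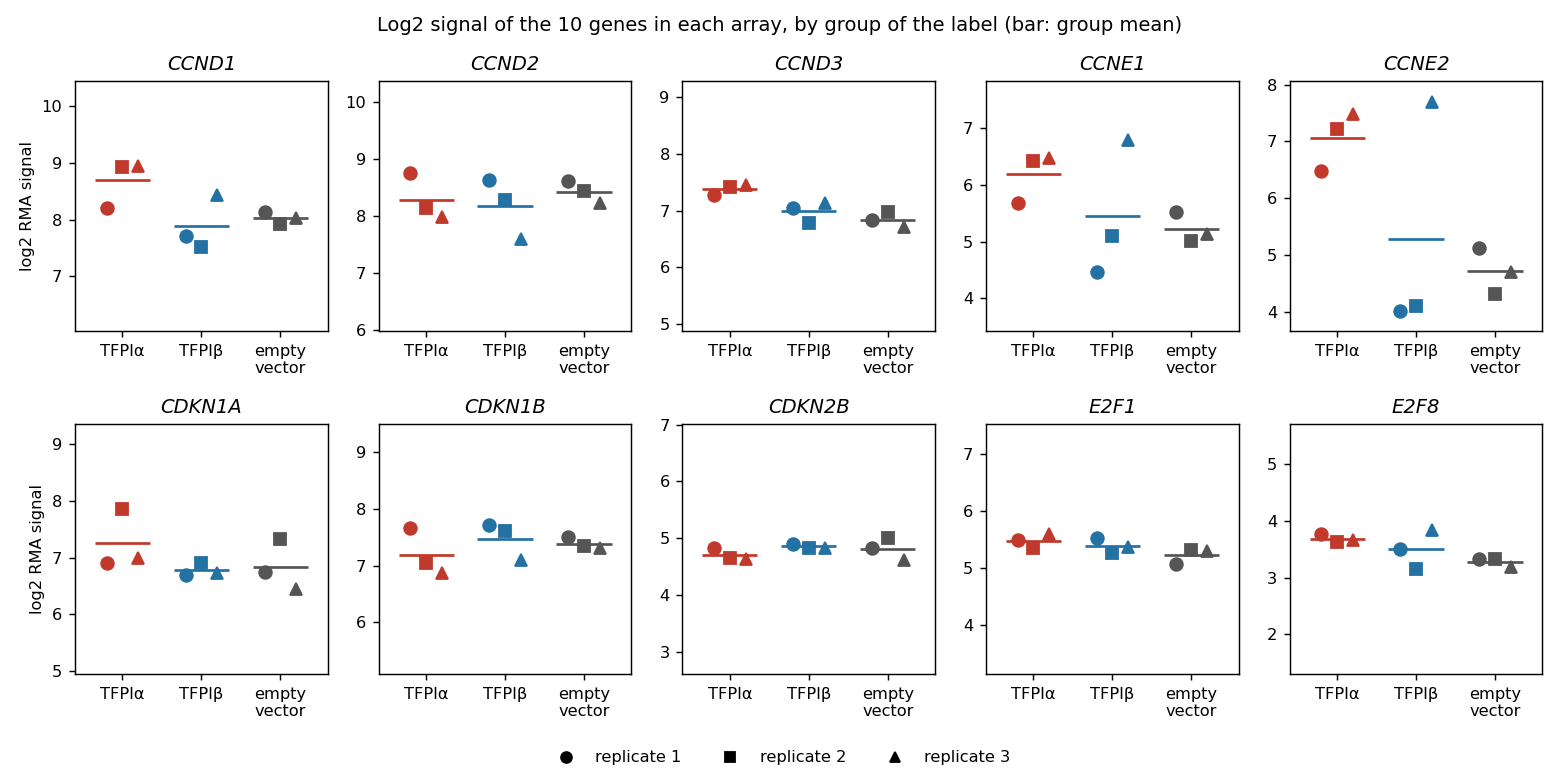
Log2 signal of each of the 10 genes (vertical axis, spanning the same range of log2 units in every panel but set at the gene's own level) in the 9 arrays, by group of the label. Each point is 1 array, its shape the replicate number, and the bar the mean of 3. CCNE1 and CCNE2 are high in the TFPIα arrays and in TFPIβ replicate 3, and E2F8 lies under 5 throughout.

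The E cyclins varied most. In RNA of a whole culture, fewer cells in a phase of the cycle and less RNA per cell cannot be told apart. CCNE2, on chromosome 8 (94880224 to 94896693), had log2 signals of 6.48, 7.22 and 7.49 in the TFPIα arrays, of 4.02, 4.10 and 7.70 in the TFPIβ arrays, and of 5.13, 4.32 and 4.70 in the empty vector arrays. The 3 TFPIα arrays and TFPIβ replicate 3 were high and the other 5 low, with no array between 5.13 and 6.48, so the TFPIβ group holds both the lowest and the highest value of the 9. In order, the group means were 7.06 ± 0.53 in TFPIα, 5.28 ± 2.10 in TFPIβ and 4.72 ± 0.41 in empty vector (SD, n = 3). CCNE1, on chromosome 19 (29811991 to 29824312), had log2 signals of 5.68, 6.42 and 6.47 in TFPIα, of 4.47, 5.09 and 6.78 in TFPIβ, and of 5.52, 5.01 and 5.14 in empty vector. Again TFPIβ replicate 3 was the highest array of all and TFPIβ replicate 1 the lowest, while TFPIα replicate 1 lay close above the highest empty vector array. The means were ordered as for CCNE2, at 6.19 ± 0.44, 5.45 ± 1.19 and 5.22 ± 0.26 (SD, n = 3), and TFPIβ differed from neither neighbour beyond its own spread.

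Of the D cyclins, CCND1 and CCND3 were higher in TFPIα and CCND2 was not. CCND1 (chromosome 11, 69641156 to 69654474) had log2 signals of 8.20, 8.92 and 8.95 in TFPIα, of 7.72, 7.52 and 8.43 in TFPIβ, and of 8.14, 7.93 and 8.03 in empty vector. The TFPIα arrays lay above all empty vector arrays, the first of them narrowly, and TFPIβ replicate 3 lay among the TFPIα arrays. CCND3 (chromosome 6, 41934933 to 42050035) had the lowest SD over the 9 arrays among the cyclins, with 7.28, 7.41 and 7.45 in TFPIα, 7.04, 6.79 and 7.14 in TFPIβ, and 6.84, 6.97 and 6.71 in empty vector. Its means were 7.38 ± 0.09, 6.99 ± 0.18 and 6.84 ± 0.13 (SD, n = 3), with the TFPIα arrays above all other 6 and the remaining groups overlapping. CCND2 (chromosome 12, 4273762 to 4305353) had log2 signals of 8.76, 8.14 and 7.98 in TFPIα, of 8.64, 8.29 and 7.59 in TFPIβ, and of 8.61, 8.45 and 8.23 in empty vector. Here the groups overlapped fully, and in every group replicate 1 was highest and replicate 3 lowest. TFPIβ replicate 3, the highest array for the E cyclins, was the lowest for CCND2.

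The arrays of the CDK inhibitors overlapped between all groups. CDKN1A (chromosome 6, 36676463 to 36687332) had log2 signals of 6.91, 7.85 and 6.99 in TFPIα, of 6.70, 6.91 and 6.73 in TFPIβ, and of 6.75, 7.32 and 6.44 in empty vector. Replicate 2 was the highest array of each group, by least in TFPIβ, and in each of the 3 numbers the TFPIα array lay above the empty vector array. CDKN1B (chromosome 12, 12717368 to 12722369) had 7.66, 7.04 and 6.86 in TFPIα, 7.71, 7.60 and 7.10 in TFPIβ, and 7.50, 7.35 and 7.30 in empty vector, so that, as for CCND2, replicate 1 was highest and replicate 3 lowest in each group. CDKN2B (chromosome 9, 22002903 to 22009313) stayed between 4.61 and 5.00 on all arrays. It passed the filter for expressed transcripts, a log2 signal of at least 5 on at least 1 array, through empty vector replicate 2 alone, and its groups did not separate.

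E2F1 (chromosome 20, 33675477 to 33686385) was dim and even, at 5.49, 5.35 and 5.59 in TFPIα, 5.52, 5.27 and 5.37 in TFPIβ, and 5.06, 5.31 and 5.29 in empty vector. The TFPIα arrays lay above the empty vector arrays by a small margin, and TFPIβ spanned the gap. E2F8 (chromosome 11, 19224063 to 19241655) did not pass the filter, with a highest log2 signal of 3.84 in TFPIβ replicate 3, and was not tested. Its log2 signals were 3.76, 3.63 and 3.66 in TFPIα, 3.50, 3.16 and 3.84 in TFPIβ, and 3.32, 3.32 and 3.19 in empty vector. Signals of different probe sets are not on 1 scale, so the levels of different members were not set against each other.

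Differences between groups were tested with limma over the 17482 probe sets past the filter, and a transcript was called when its Benjamini-Hochberg adjusted p was under 0.05 and its fold change was 2 or more. Across all transcripts 1 was called between TFPIα and empty vector (0.00572%), 0 between TFPIβ and empty vector (0.0%) and 0 between TFPIβ and TFPIα (0.0%). The called transcript, ATP1B1, the β subunit of the sodium-potassium pump, is no member and is named after its value was seen. No member was called in any comparison. At an unadjusted p under 0.05, limma picked out 14.2%, 4.72% and 8.63% of all transcripts in the 3 comparisons. Both comparisons with empty vector use the same 3 control arrays.

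Between TFPIα and empty vector, 6 of the 9 members tested had a log2 fold change above 0, as did 50.0% of all transcripts. The median over the members was 0.41 on the log2 scale, with a median over all transcripts of 0.00. Members at an unadjusted p under 0.05 in limma numbered 4, CCND1, CCND3, CCNE2 and E2F1, all higher in TFPIα, where 8.59% of all transcripts were. For 5 members, these 4 and CCNE1, every TFPIα array lay above every empty vector array, where 14.4% of all transcripts did. The log2 fold change was 2.35 for CCNE2 (SE 0.89, limma adjusted p = 0.342) and 0.97 for CCNE1 (SE 0.53, adjusted p = 0.409). For the D cyclins it was 0.66 for CCND1 (SE 0.27, adjusted p = 0.346), 0.54 for CCND3 (SE 0.12, adjusted p = 0.335) and -0.14 for CCND2 (SE 0.29, adjusted p = 0.848). The adjusted p of CCND3 was the lowest of the members, with the smallest SE of the 3 D cyclins. E2F1 had a log2 fold change of 0.25 (SE 0.11, adjusted p = 0.352). The inhibitors were at 0.41 for CDKN1A (SE 0.29, adjusted p = 0.503), -0.20 for CDKN1B (SE 0.23, adjusted p = 0.702) and -0.11 for CDKN2B (SE 0.11, adjusted p = 0.675).

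TFPIβ replicate 3 enters that comparison only through the common estimate of the spread. Without it the log2 fold changes of TFPIα against empty vector stayed as they were, and the SE of CCNE2 went from 0.89 to 0.29 and that of CCNE1 from 0.53 to 0.26. The adjusted p was then 0.128 for CCNE2, 0.132 for CCND3, 0.161 for CCNE1 and 0.182 for CCND1, and again no member was called. At an unadjusted p under 0.05 in limma there were again 4 members, all higher in TFPIα, with CCNE1 in place of E2F1. Of all 17482 transcripts, 2063 were then higher at that p, against 1502 with all arrays. The 95% interval of the CCNE2 log2 fold change was 0.32 to 4.38 with all arrays and 1.67 to 3.03 without this one. For CDKN1B it was -0.72 to 0.33 with all arrays. For CDKN1A it was -0.25 to 1.07, and 0.02 to 0.81 with the replicate number as a block. With the block the same log2 fold change of 0.41 had an SE of 0.17 and a limma adjusted p = 0.237. CDKN1A is the only member for which this interval is given. With the block 2080 of all 17482 transcripts were higher at an unadjusted p under 0.05 in limma, against 1502 without it.

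**Figure D2:**
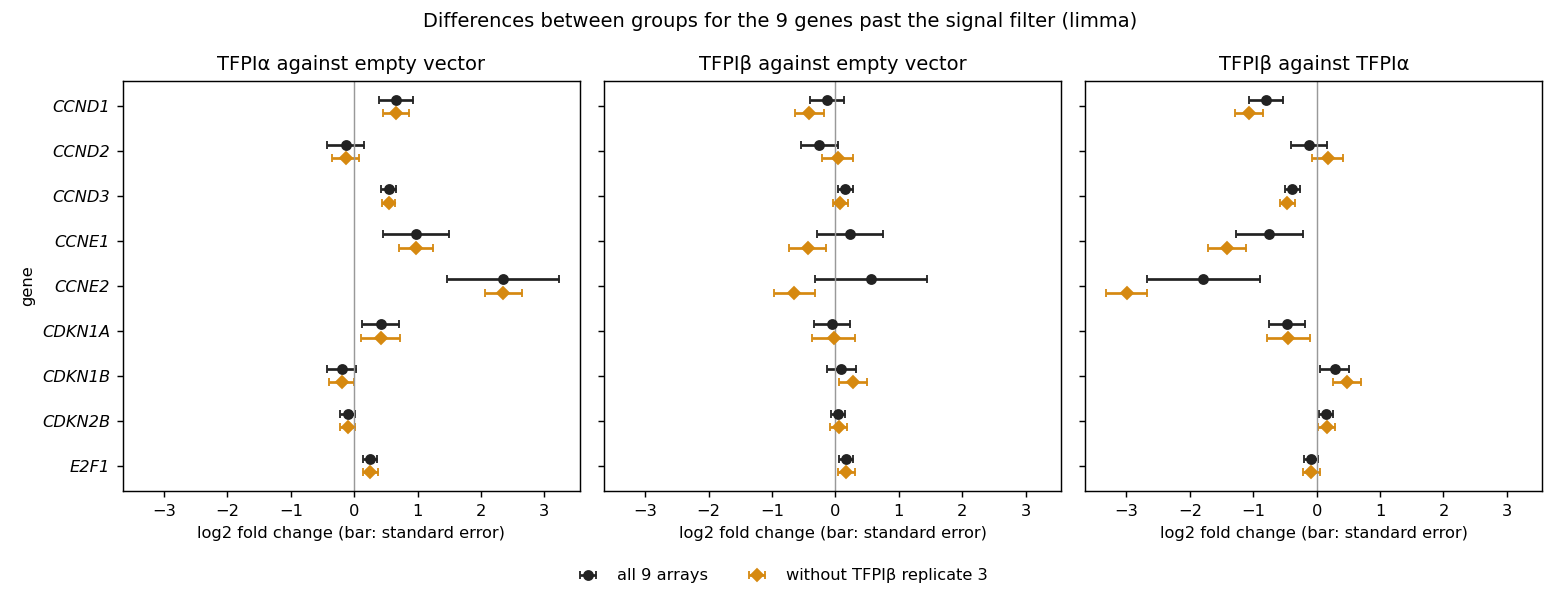
Log2 fold change (horizontal axis, bars the limma standard error) of the 9 genes tested in the 3 comparisons, with all 9 arrays (circles) and without TFPIβ replicate 3 (diamonds). Leaving this array out moved CCNE2 in TFPIβ against empty vector from 0.56 to -0.65 and in TFPIβ against TFPIα from -1.79 to -3.00.

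Between TFPIβ and empty vector, none of the 9 members reached an unadjusted p under 0.05 in limma (4.72% of all transcripts), and none had groups that did not overlap, against 7.16% of all transcripts. Without TFPIβ replicate 3 again none of the 9 reached that p (5.7% of all transcripts), and the arrays of 3 did not overlap, CCND1 and CCNE2 lower and CDKN1B higher in TFPIβ, as did those of 19.9% of all transcripts. The log2 fold change was above 0 for 6 of the 9 and for 50.5% of all transcripts, with a median of 0.09 over the members and 0.00 over all transcripts. Without that array it was above 0 for 5 of the 9 and for 50.6% of all transcripts, with a median of 0.04 over the members. All adjusted p-values of the members were 1.00, and 0.805 or more without that array. For CCNE2 the log2 fold change was 0.56 (SE 0.89) with all arrays and -0.65 (SE 0.33) without TFPIβ replicate 3, and for CCNE1 it was 0.23 (SE 0.53) and -0.44 (SE 0.30). In this comparison 1 array thus set the direction of both E cyclins. CCND1 was at -0.14 (SE 0.27), and at -0.41 (SE 0.23) without that array. CCND2 was at -0.26 (SE 0.29), and at 0.04 (SE 0.24) without it. CCND3, at 0.15 (SE 0.12) and 0.08 (SE 0.12), and E2F1, at 0.16 (SE 0.11) and 0.17 (SE 0.13), changed little. The inhibitors lay within 0.09 of 0 with all arrays, CDKN1B at 0.09 (SE 0.23), CDKN1A at -0.06 (SE 0.29) and CDKN2B at 0.04 (SE 0.11). Without that array CDKN1B was at 0.28 (SE 0.22), CDKN1A at -0.03 (SE 0.34) and CDKN2B at 0.05 (SE 0.13).

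Between the isoforms, 7 of the 9 members had a lower mean in TFPIβ than in TFPIα and 2 a higher one, where 49.7% of all transcripts had a higher one, and the median log2 fold change was -0.39 against 0.00 over all transcripts. CCND1 and CCND3 were lower at an unadjusted p under 0.05 in limma, where 4.7% of all transcripts were. Only CCND3 had TFPIβ arrays that all lay under the TFPIα arrays, where 7.1% of transcripts did. Without TFPIβ replicate 3 there were 4 members lower at that p, CCND1, CCND3, CCNE1 and CCNE2, where 14.0% of all transcripts were, and the same 4 lay wholly under the TFPIα arrays, where 23.8% of transcripts did. A higher mean was then found for 3 of the 9 and for 51.6% of all transcripts, and the median over the members was -0.44. The log2 fold change of TFPIβ against TFPIα was -0.80 for CCND1 (SE 0.27, limma adjusted p = 0.532), -0.39 for CCND3 (SE 0.12, adjusted p = 0.532), -1.79 for CCNE2 (SE 0.89, adjusted p = 0.532) and -0.75 for CCNE1 (SE 0.53, adjusted p = 0.578). Without TFPIβ replicate 3 these were -1.07 for CCND1, -0.46 for CCND3, -3.00 for CCNE2 and -1.41 for CCNE1. CCND1, CCNE1 and CCNE2 then each had an adjusted p of 0.116 and CCND3 one of 0.120, again short of a call. CDKN1B went the other way, at 0.29 with all arrays (SE 0.23, adjusted p = 0.609) and 0.47 without that one (SE 0.22, adjusted p = 0.241).

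The arrays of each group were numbered 1 to 3, and whether members differed between numbers was tested with a moderated F-test beside the group (limma). No transcript of the 17482 was called (0.0%), while 16.0% had an unadjusted p under 0.05. CCND2, CDKN1A and CDKN1B were among the latter. CCND2 had means of 8.67, 8.29 and 7.94 over the arrays numbered 1, 2 and 3 (adjusted p = 0.226), and CDKN1B of 7.62, 7.33 and 7.08 (adjusted p = 0.266). CDKN1A was highest in number 2, with means of 6.79, 7.36 and 6.72 (adjusted p = 0.247). Without TFPIβ replicate 3 the adjusted p was 0.340 for CCND2, 0.319 for CDKN1A and 0.502 for CDKN1B. The ranges of the means over the numbers were larger for CCNE2 (1.42) and CCNE1 (0.91) than for CCND2 (0.73), at adjusted p-values of 0.421 and 0.453. Without that array they were 0.31 for CCNE2, 0.29 for CCNE1 and 0.57 for CCND2.

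**Figure D3:**
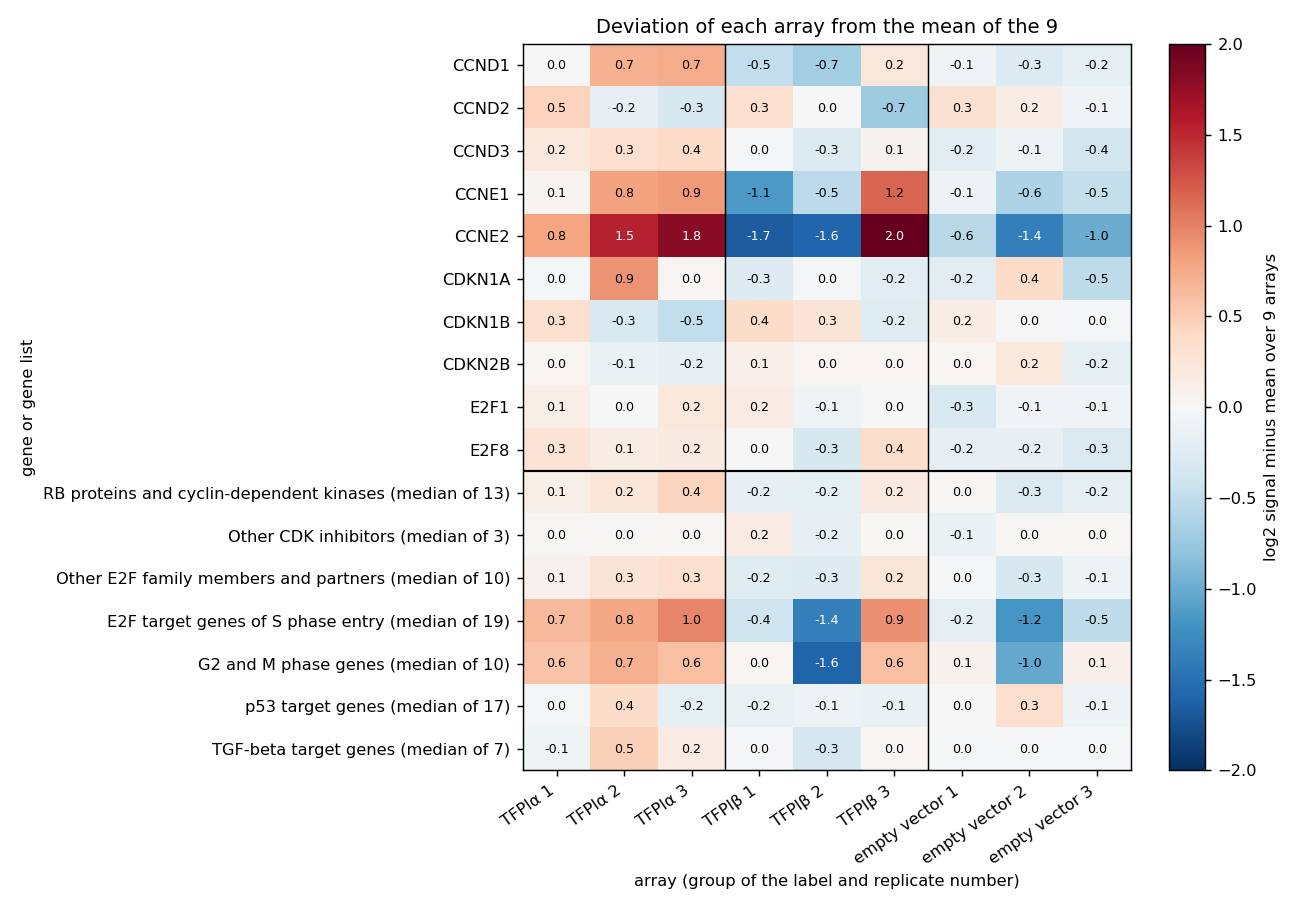
Log2 signal of each array minus the mean of the 9 arrays (colour and printed value, log2 units) for the 10 genes (upper rows) and for the median of 7 lists of related genes (lower rows). The S phase targets of E2F, like CCNE1 and CCNE2, are above their mean in the 3 TFPIα arrays and in TFPIβ replicate 3, and p53 targets, like CDKN1A, are highest in replicate 2 of TFPIα and of empty vector.

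The kinases and RB proteins around the members were next. All 13 listed genes passed the filter, and between TFPIα and empty vector 12 had a log2 fold change above 0, with a median of 0.40 and 0 called. At an unadjusted p under 0.05 in limma, 7 were higher, as were 8.59% of all transcripts, and 1 lower. CDK2, the partner of the E cyclins, had a log2 fold change of 1.19 (SE 0.42, adjusted p = 0.335), and CDC25A, the phosphatase that activates it, of 1.18 (SE 0.60, adjusted p = 0.391). CDC25A reached a log2 signal of 5 only in the TFPIα arrays and TFPIβ replicate 3, so it passed the filter through these alone. RBL2 (p130), the RB relative of resting cells, was the one that was lower, at -0.34 (SE 0.09, adjusted p = 0.335). CDK7, the kinase of the CDK-activating complex, was at 0.00 (SE 0.12). CDK2 had log2 signals of 8.10, 7.90 and 8.35 in TFPIα, of 7.16, 6.09 and 8.08 in TFPIβ, and of 7.09, 6.72 and 6.97 in empty vector. It thus repeated the split of CCNE2, its cyclin partner, TFPIβ replicate 3 included. In TFPIβ against empty vector the median of the 13 was 0.11, and -0.05 without that array.

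Of 5 further CDK inhibitors, 3 passed the filter and 0 were called. CDKN3, a phosphatase that acts on CDK2, was at 0.71 (SE 0.44), CDKN2D (p19) at 0.05 (SE 0.10) and CDKN1C (p57) at -0.24 (SE 0.16) between TFPIα and empty vector. All 10 further E2F family genes and partners had a log2 fold change above 0 in that comparison, with a median of 0.37 and 0 called. At an unadjusted p under 0.05 in limma 2 were higher, as were 8.59% of all transcripts. E2F2, 1 of the 10, reached a log2 signal of 5 only in TFPIα replicate 3 (5.09) and TFPIβ replicate 3 (5.49). It passed the filter through these alone. E2F7, the repressor most like E2F8, was at 1.00 (SE 0.38, adjusted p = 0.342), with log2 signals of 6.39, 6.88 and 6.94 in TFPIα, 5.38, 4.75 and 6.41 in TFPIβ, and 5.82, 5.46 and 5.95 in empty vector. The 3 TFPIα arrays and TFPIβ replicate 3 were thus its highest, as for the E cyclins. LIN9, a subunit of the complex that binds E2F4 and p130, was at 0.59 (SE 0.32), E2F3, a further activator, at 0.15 (SE 0.15), and TFDP2, a DNA-binding partner of E2Fs, at 0.08 (SE 0.11).

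Among genes that E2F is known to induce on entry into S phase, 19 of 20 were measured, and all 19 had a log2 fold change above 0 between TFPIα and empty vector. Their median was 1.35, with 17 higher at an unadjusted p under 0.05 in limma (8.59% of all transcripts) and 0 called. The replicative helicase subunits MCM6 and MCM4 led, at 1.84 (SE 0.67, adjusted p = 0.336) and 1.78 (SE 0.49, adjusted p = 0.335), and RRM1, a ribonucleotide reductase subunit, and the licensing factor CDT1 were lowest, at 0.62 (SE 0.25) and 0.41 (SE 0.16). MCM6 had log2 signals of 8.45, 8.65 and 9.02 in TFPIα, of 6.84, 6.06 and 9.04 in TFPIβ, and of 7.26, 6.25 and 7.07 in empty vector. As for CCNE1 and CCNE2, TFPIβ replicate 3 was the highest array for MCM6, here by a narrow margin. Over the 19 genes the median deviation from the gene's mean was highest in TFPIα replicate 3, at 0.97, with TFPIβ replicate 3 at 0.92. In TFPIβ against empty vector the median of the 19 was 0.30, and -0.31 without that array. In TFPIβ against TFPIα it was -1.03, and -1.67 without it, when all 19 were lower at an unadjusted p under 0.05 in limma, as were 14.0% of all transcripts, and 0 called. The log2 fold change of E2F1 itself in TFPIα against empty vector was 0.25.

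**Figure D4:**
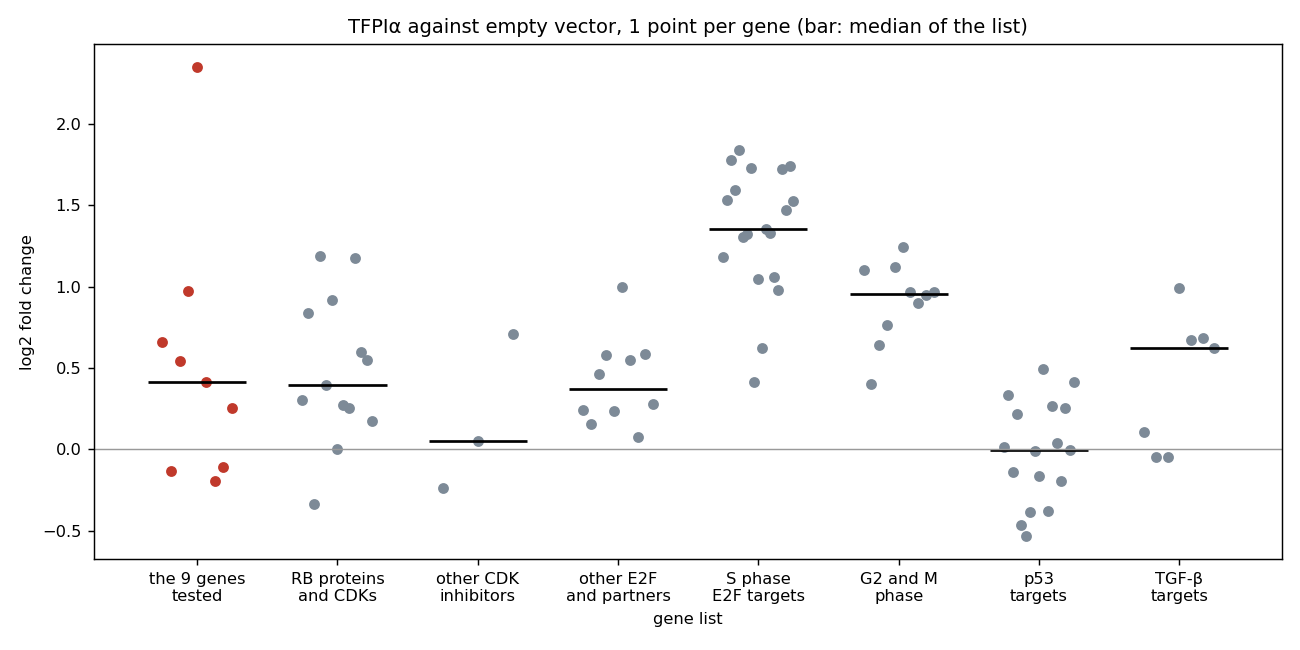
Log2 fold change of TFPIα against empty vector (vertical axis) for each gene tested, 1 point per gene, by list, with the 9 tested cyclins, inhibitors and E2F1 at the left. The bar is the median of the list, 1.35 for the S phase E2F targets and -0.01 for the p53 targets.

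G2 and M phase genes, which are transcribed later in the cycle, were all above 0 between TFPIα and empty vector (10 of 10, median 0.96, 1 higher at an unadjusted p under 0.05 in limma, near the 8.59% of all transcripts, 0 called). BUB1 of the spindle checkpoint was at 1.24 (SE 0.65), the mitotic kinase CDK1 at 1.12 (SE 0.57), its cyclin CCNB1 at 0.64 (SE 0.48) and topoisomerase TOP2A at 0.40 (SE 0.47). Their arrays were ordered otherwise than those of CCNE1 and CCNE2. Relative to the mean of the 9 arrays, the median of this list was -1.60 in TFPIβ replicate 2 and -1.03 in empty vector replicate 2, but 0.04 in TFPIβ replicate 1 and 0.09 to 0.10 in the other empty vector arrays. CCNE2 was low in all 5 of these arrays, and in TFPIβ it was as low in replicate 1 as in replicate 2. The S phase targets lay between, with medians of -1.36 in TFPIβ replicate 2 and -1.18 in empty vector replicate 2, and of -0.40 in TFPIβ replicate 1.

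CDKN1A was read beside 17 further p53 targets, 8 of which had a log2 fold change above 0 between TFPIα and empty vector, with a median of -0.01 and 0 called. RRM2B, a p53-inducible ribonucleotide reductase subunit, was at 0.49 (SE 0.29) and the nuclease AEN at 0.41 (SE 0.23), while the stress cytokine GDF15 was at -0.47 (SE 0.28) and SESN1 at -0.53 (SE 0.28). By array the median of the list was 0.36 above its mean in TFPIα replicate 2 and 0.34 above in empty vector replicate 2, and lay between -0.17 and -0.01 in the other 7. These are the 2 arrays in which CDKN1A was highest. MDM2, the p53 antagonist that p53 induces, had 9.58 and 9.42 in them and 8.26 to 8.73 in the others. In TFPIβ replicate 2 neither CDKN1A, at 6.91, nor MDM2, at 8.49, stood as high. CDKN2B was read beside 7 TGF-β targets, 5 of them above 0 between TFPIα and empty vector, with a median of 0.62 and 0 called. SMAD7, 1 of the 5, reached a log2 signal of 5 only in TFPIα replicates 2 and 3 (5.06 and 5.03). It passed the filter through these alone. CCN2 (CTGF) was at 0.99 (SE 0.44), ID1 at 0.69 (SE 0.59), TGFBI at -0.05 (SE 0.18) and SKIL at -0.05 (SE 0.11), while CDKN2B was at -0.11. All the lists were chosen with earlier results of these arrays known, so their counts are descriptions.

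The genes whose log2 signals followed each member most closely over the 9 arrays, of 11223 other genes past the filter, are given by Pearson r as a description. They share the arrays with the member, and for CCNE2 the arrays lie on either side of the gap given above. For CCNE2 they were BRI3BP, ATG4C and CCT2 (r = 0.990, 0.989 and 0.983), and for CCNE1 CLUH, FLVCR1 and ENTR1 (r = 0.992, 0.989 and 0.986). For CCND1 they were CCT3, LIPG and RARS1 (r = 0.990, 0.989 and 0.985), and for CCND3 EXOC5, AP1M1 and B4GALNT1 (r = 0.957, 0.949 and 0.947). CCT3 and CCT2 are subunits of the same chaperonin. CCND2 was followed by CD164, AFF4 and TTC12 (r = 0.989, 0.976 and 0.974), and CDKN1B by DKK3, IRX3 and DNAJB2 (r = 0.982, 0.978 and 0.969). CDKN1A was followed by DKK1, CDC42EP3 and TNFSF9 (r = 0.975, 0.937 and 0.927), and CDKN2B by NINJ1, IFI27L2 and AMZ2P1 (r = 0.957, 0.935 and 0.926). E2F1 had the loosest neighbours, FGFRL1, H1-2 and COL4A2 (r = 0.919, 0.907 and 0.893).

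Markers of other cell types were set beside these differences. The summed signal of 7 fibroblast markers, on the log2 scale, was 9.92 to 10.52 in TFPIα, 9.95 to 10.07 in TFPIβ and 10.69 to 11.31 in empty vector. It was carried by DCN, with COL1A2, COL3A1, PDGFRA and PDGFRB under 5 on all arrays. The summed signal was thus lower in all 3 TFPIα arrays and in all 3 TFPIβ arrays than in any empty vector array. COL1A1 and LUM overlapped between the groups. The part of this list in the differences of the members was not tested. Of the 3 measured leukocyte markers, PTPRC, which defines leukocytes, was at 2.19 to 2.28 and CD3E under 5 on all arrays, while CD14 was at 6.46 to 9.12 and carried the summed signal, which was 7.35 to 8.22 in TFPIα, 6.71 to 8.33 in TFPIβ and 7.04 to 9.16 in empty vector. The summed signal of the 5 basal markers overlapped between the groups, at 13.66 to 14.02 in TFPIα, 13.59 to 14.04 in TFPIβ and 13.79 to 13.93 in empty vector. Of these, CAV1 did not overlap, at 10.22 to 10.54 in TFPIα, 10.13 to 10.21 in TFPIβ and 9.50 to 10.04 in empty vector. The part of these markers in the differences of the members was not tested.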

How the data were processed

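RNA from cells labelled SK-BR-3 was hybridised to 9 Affymetrix arrays, 3 per group. The authors used Partek Genomics Suite with its RMA algorithm (versions not given in the sources used here) and deposited 1 log2 signal per probe set and array, the log base being read from their range of 0.16 to 13.45. Of 33297 probe sets, the 17482 with a highest signal of at least 5 were tested, 11838 of them with 1 gene symbol, 1150 with several and 4494 with none. Symbols came from the array annotation and were updated through RefSeq, and where a gene had several probe sets the brightest by mean was used. Arrays have no read depth; precision is limited by having 3 per group.

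Groups were taken from the labels. All 3 were fitted together in limma 3.58.1 (R 4.3.3) with lmFit and eBayes, with figures from matplotlib 3.10.9 (Python 3.11.15). SD is over arrays and SE from limma. The smallest p of an exact permutation test of 3 arrays against 3 is 0.1, so none was run. The script was tested on simulated data.

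The members and all gene lists were chosen with earlier results of these data known. Named genes were every member, TFPI and the cell type markers. Added were the 2 highest and 2 lowest of each list by log2 fold change of TFPIα against empty vector. So were the 3 nearest neighbours of each member by Pearson r. MDM2, ATP1B1, E2F2 and SMAD7 were named after their values were seen. Same-numbered arrays of different groups deviated together from their group means in all 9 pairs (r = 0.137 to 0.594), against -0.512 to 0.266 in the other 18 pairs. Deviations from a group mean cancel within the group, which by itself lowers the second range when the first is positive. The ranges also overlapped, so whether the numbers pair the arrays was not settled. The number as a block was therefore run as an alternative. Also tried were a threshold of 0.10 on the adjusted p, no variance moderation (a one-way model), fits of the compared groups only, a filter at 6 or none, median-centred arrays, a trended and robust prior, probe sets of 1 symbol only, the mean of a gene's probe sets, and omission of each array in turn.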

Additional observations from a re-analysis of the deposited data

How the results depend on the processing

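No member was called in any comparison under the 19 alternatives tried, the replicate block included. With the replicate block, the lowest adjusted p of a member was 0.189 in TFPIα against empty vector (CCND3) and 0.320 in TFPIβ against TFPIα. Over all alternatives the lowest was 0.128 for TFPIα and 0.776 for TFPIβ, each against empty vector, and 0.116 for TFPIβ against TFPIα. Across all transcripts, the 1 called between TFPIα and empty vector (ATP1B1) became 0 in the one-way model, with only the compared groups, with the replicate block, with no filter and with arrays centred on their medians, and 0 to 4 with 1 array left out (4, S100A9, S100A8, SAA2 and SLC39A8, all lower, without TFPIα replicate 3). Between TFPIβ and TFPIα the replicate block gave 1 called in place of 0, and for the replicate number no filter gave 2 and the omission of single arrays 0 to 1; none of these has a gene symbol. The cause was not tested.

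Directions changed only when single arrays were left out. In TFPIα against empty vector CCND2 ranged from -0.37 to 0.020, CDK7 from -0.062 to 0.078, CDKN2D from -0.0018 to 0.080, TFDP2 from -0.0093 to 0.15 and TGFBI from -0.23 to 0.12. In TFPIβ against empty vector CCNE2 ranged from -0.65 to 1.19, CCNE1 from -0.44 to 0.71, CCND1 from -0.41 to 0.045, CCND2 from -0.49 to 0.035, CDKN1A from -0.26 to 0.19, CDKN1B from -0.031 to 0.28 and CDKN2B from -0.062 to 0.14, the E cyclins and CCND2 turning without TFPIβ replicate 3. In TFPIβ against TFPIα CCND2 ranged from -0.35 to 0.17. CDKN2B and E2F1 lie near the filter, where signal over background limits what can be measured. The same limit holds for the low arrays of the E cyclins. CCNE2 was under 5 in TFPIβ replicates 1 and 2, at 4.02 and 4.10. It was also under 5 in empty vector replicates 2 and 3, at 4.32 and 4.70. CCNE1 was under 5 in TFPIβ replicate 1, at 4.47.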
